A study of Mus musculus with 2 samples.

Results

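The distal microRNA (miRNA) cluster of the imprinted Dlk1-Dio3 region lies on mouse chromosome 12 and runs from Mir379 past Mir410. Its members were taken by position alone: every miRNA gene with a row in the count tables that GENCODE places on the plus strand within chr12:109709060-109747960 (mm10). The rule gave 34 of the 1973 miRNA gene rows, over 38.9 kb. The last of them, Mir3072, lies beyond Mir410. The 34 members were measured in intestine taken from B6NCrl mice at embryonic day 16.5, as tissue pooled from male and female embryos, with no genetic change or treatment named. The labels call the libraries 2 biological replicates of 1 group, so there is no contrast between conditions. Replicate 2 was pooled from 41 embryos, and the labels give no such number for replicate 1. The depth was 4261976 sense-strand gene counts in replicate 1 and 5680764 in replicate 2.

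MicroRNA genes are transcribed as hairpins, from which short RNAs are cut. Each hairpin can give a 5p and a 3p arm, and the seed near the 5′ end of an arm sets most of the messenger RNAs that it binds and represses. In the Dlk1-Dio3 region the noncoding RNAs Meg3, Rian and Mirg and the miRNAs among them are expressed from the maternal allele, while the protein-coding genes Dlk1, Rtl1 and Dio3 are expressed from the paternal one. The distal cluster is specific to placental mammals and is known for its expression in brain, embryo and placenta, where members such as Mir134 act on dendrites and synapses.

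The cluster holds a few groups of related sequence, and the most abundant of these is shown first because it held over 37% of the cluster's counts. Sequences are mature arms from RefSeq (GRCm38.p6, plus strand), written 5′ to 3′, with the seed (bases 2 to 8) in capitals. RefSeq held a hairpin for 31 of the 34 members and 61 mature arms for 33 of them. The entries without a hairpin were Mir666, Mir544 and Gm27379, and Gm27379 had no mature arm. The first 5 arms belong to Mir379, Mir411 and Mir1193:
miR-379-5p: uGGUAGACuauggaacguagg
miR-1193-5p: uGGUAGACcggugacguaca
miR-411-5p: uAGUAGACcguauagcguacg
miR-379-3p: uAUGUAACaugguccacuaacu
miR-411-3p: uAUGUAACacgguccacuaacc
The 5p arms of Mir379 and Mir1193 have 1 seed (GGUAGAC), and the 3p arms of Mir379 and Mir411 have another (AUGUAAC). The 3p arms of Mir379 and Mir411 were identical at 20 of 22 bases, aligned from the first base without gaps. By contrast, the 5p arms of Mir379 and Mir1193 were identical at 7 of 7 seed bases but at 2 of the 12 bases after position 8. The 5p arm of Mir411 matched that of Mir379 at 6 of 7 seed bases and so fell outside that seed.

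The other 3 seed families are pairs of members, and they are shown because the partners differed in level. RefSeq gives the mature RNA of Mir453 without an arm:
miR-494-5p: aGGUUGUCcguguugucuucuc
miR-410-5p: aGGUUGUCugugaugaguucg
miR-496a-5p: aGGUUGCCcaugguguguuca
miR-453: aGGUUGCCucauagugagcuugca
miR-758-5p: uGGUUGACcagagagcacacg
miR-1197-5p: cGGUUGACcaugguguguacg
The pair Mir494 and Mir410 was identical at 16 of 21 bases and Mir758 and Mir1197 at 14 of 21. Mir496a and Mir453 were identical at 8 of 21, with 0 of 13 after the seed. The remaining abundant members did not share a seed with another member among the arms that RefSeq lists. One arm of each is given here, so that the levels below can be read beside the sequence:
miR-487b-5p: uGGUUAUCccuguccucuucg
miR-369-3p: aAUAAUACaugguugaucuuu
miR-541-5p: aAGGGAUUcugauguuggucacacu
miR-382-5p: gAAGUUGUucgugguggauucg
miR-381-3p: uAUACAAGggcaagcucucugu
miR-300-3p: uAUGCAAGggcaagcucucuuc
miR-154-3p: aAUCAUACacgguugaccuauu
miR-134-5p: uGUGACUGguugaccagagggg
Mir300 was added to this set because its 3p arm matched that of Mir381 at 19 of 22 bases while its seed differed. The tables count reads per gene, so the arm that gave the reads is not known for any member.

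Levels are given as CPM, the number of counts in every 1e+06: counts on the strand of the gene divided by their total over all miRNA genes. They were not divided by length, since a read stands for 1 short RNA whatever the length of the annotated gene. The cluster took 178494 counts in replicate 1 and 215777 in replicate 2. These were 4.19% (exact Clopper-Pearson 95% interval 4.17 to 4.21) and 3.80% (3.78 to 3.81) of the counts, a mean of 3.99% ± 0.276 (SD, n = 2). The share was higher in replicate 1, and the intervals, which cover counting error only, did not overlap. Reads on this strand at 4 rows annotated on the opposite strand, 0.999% ± 0.0115 of the counts, are outside these values. In bulk tissue, fewer cells of a type and less RNA per cell cannot be told apart.

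Most members were detected. At least 10 counts in both libraries were found for 29 of 34 members (85.3%), where 17.6% of all gene rows reached that number. A mean of 1000 CPM or more was found for 8 of 34 (23.5%), against 4.76% of all gene rows. The median of the 34 members was 189 CPM, beside 0 CPM over all gene rows. Among genes with at least 10 counts in both libraries, the medians were 287 CPM for 29 members and 154.2 CPM for all 347 genes. The highest member, Mir411, ranked 25 among all genes, so 24 genes lay above every member.

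The rest of the Dlk1-Dio3 region served as a comparison: 20 other miRNA genes, those on the plus strand within 260 kb before Mir379 and Mir1247 beyond the cluster. They held 1.60% ± 0.144 of the counts, and 15 of 20 had at least 10 counts in both libraries. Their median was 94.4 CPM over all 20 and 330 CPM over those 15. Mir127, which acts on the imprinted gene Rtl1 encoded on the opposite strand, was their highest at 7368 ± 490 CPM. Mir411 exceeded it by 1.28-fold in replicate 1 and 1.30-fold in replicate 2.

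**Figure D1:**
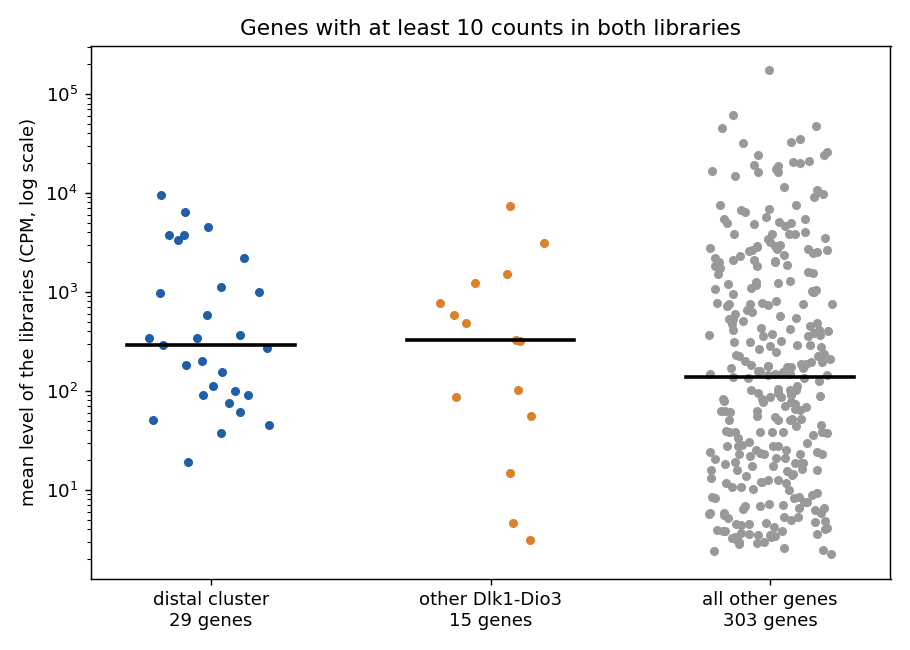
Mean CPM of the libraries (log axis) for genes with at least 10 counts in both: 29 members of the distal cluster, 15 other Dlk1-Dio3 genes and 303 other genes, 1 point a gene, with a bar at the median (287, 330 and 139 CPM). Points are spread sideways for visibility, and the members lie between 19.01 and 9499 CPM.

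The cluster's counts were concentrated in a few members. The highest 2 held 40.0% ± 0.963 of the cluster's counts, the highest 5 held 70.0% ± 0.427 and the highest 10 held 91.5% ± 0.919 (n = 2). The same 10 members were highest in both libraries. Across the 34 members, log2(CPM + 1) correlated between the libraries at Pearson's r = 0.995 and Spearman's rho = 0.997, as a description over genes, which are not independent replicates.

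Mir411 (chr12:109710175-109710256) was at 9837 CPM in replicate 1 and 9161 CPM in replicate 2, or 9499 ± 478 CPM. Mir487b (chr12:109727333-109727414) was at 6612 and 6274 CPM, a mean of 6443 ± 239. Mir379 (chr12:109709060-109709125), the first gene of the cluster, was at 4493 and 4485 CPM, with a mean of 4489 ± 5.76. These 3 members did not overlap one another across the libraries, and each gap in means was larger than the sum of the SDs, as was the gap from Mir379 to the next member.

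Mir369 (chr12:109743418-109743496) was at 4251 CPM in replicate 1 and 3318 CPM in replicate 2, with a mean of 3784 ± 660. Mir541 (chr12:109742409-109742498) was at 3995 and 3464 CPM, or 3729 ± 376. Mir382 (chr12:109733771-109733846) was at 3385 and 3241 CPM, or 3313 ± 102. Mir369 and Mir541 overlapped and did not differ beyond the spread of the libraries. Mir541 lay above Mir382 in both libraries without overlap, but the gap in means was smaller than the sum of the SDs. Mir381 (chr12:109726822-109726896) followed at 2207 and 2179 CPM, or 2193 ± 19.8, below all 3 in both libraries.

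Around 1000 CPM lay 3 members whose neighbouring means were closer than their summed SDs. Mir154 (chr12:109738433-109738498) was at 1149 and 1076 CPM (1113 ± 51.4). Mir1193 (chr12:109715671-109715791) was at 1074 and 907 CPM (991 ± 118). Mir134 (chr12:109734139-109734209), known for limiting the size of dendritic spines through Limk1, was at 1041 and 893 CPM (967 ± 105). Each of these 3 was higher in replicate 1, and their order was the same in both libraries. The exact 95% intervals of Mir154 lay above those of Mir1193 within each library. Mir154 was just above the line of 1000 CPM by its mean, and Mir1193 and Mir134 just below it.

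Below them the levels fell gradually. Mir300 (585 ± 9.07 CPM) lay apart from its neighbours on both sides. From Mir494 (369 ± 44.2 CPM) through Mir543, Mir323, Mir329, Mir376c, Mir485, Mir667, Mir496a, Mir495, Mir679, Mir410, Mir377, Mir539, Mir412, Mir668 and Mir666 to Mir3072 (37.1 ± 4.22 CPM), no neighbouring pair differed beyond its spread. Mir758 was last of the 29 members with at least 10 counts in both libraries, at 19.01 ± 4.97 CPM, and was separated from Mir3072. In all, 8 of the 28 neighbouring pairs in this order differed beyond their spread.

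**Figure D2:**
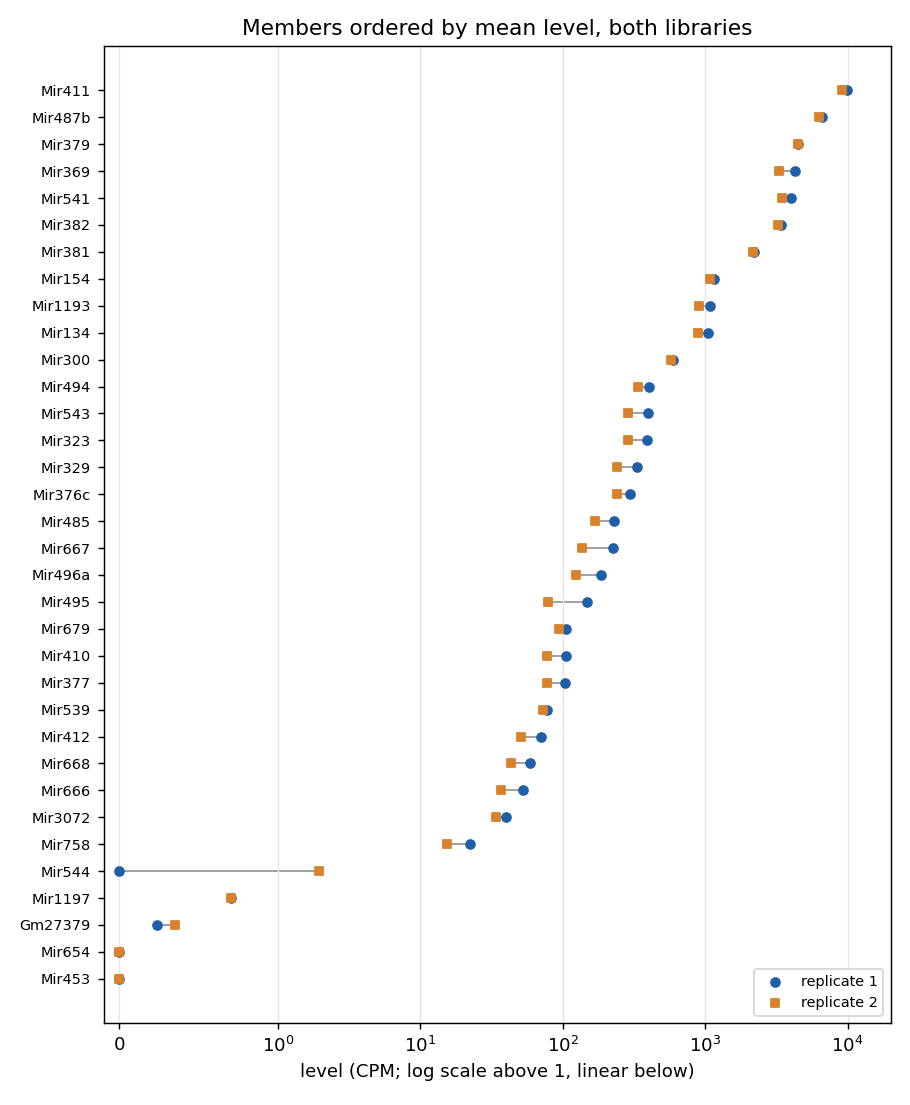
The 34 members ordered by mean level, with CPM on the horizontal axis (log scale above 1, linear below); circles are replicate 1, squares replicate 2, and a line joins them. Levels run from Mir411 at 9499 CPM to Mir654 and Mir453 at 0, with Mir544 at 0 in 1 library and 1.94 CPM in the other.

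The 5 lowest members were at or near the limit of detection. Mir654 (chr12:109723218-109723301) and Mir453 (chr12:109735619-109735700) had 0 counts in both libraries, which allows up to 3 counts (0.704 CPM in the first library and 0.528 CPM in the second). Gm27379 had 1 and 2 counts, and Mir1197 had 3 and 4. Mir544 had 0 counts in replicate 1 and 11 in replicate 2 (1.94 CPM, exact 95% interval 0.967 to 3.46). None of these 5 reached 2 CPM in either library, and no ratio was formed between them.

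Across single members, level showed no steady rise or fall along the cluster, although the medians and shares of successive groups fell, as given below. The correlation of log2(mean CPM + 1) with the start of the gene was -0.03 (Pearson) and -0.12 (Spearman) across the 34 members, which share the same libraries, so no p was computed. Adjacent members were no closer in level than members in general: the median gap was 3.85 on the log2 scale over 33 adjacent pairs and 3.59 over all 561 pairs. High members were found at the start (Mir379, Mir411), in the middle (Mir381, Mir487b, Mir382) and near the end (Mir541, Mir369).

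Divided by order along the chromosome into 3 groups of near-equal size, the 12 members from Mir379 to Mir495 held 41.6% ± 0.520 of the cluster's counts, with a median of 314 CPM. The 11 members from Mir667 to Mir134 held 35.2% ± 0.983, with a median of 268 CPM. The 11 from Mir668 to Mir3072 held 23.3% ± 1.503, with a median of 91.5 CPM. Reads at loci without a row on this strand are not in these shares. Among those loci, Mir376a (3015 CPM) lies in the middle stretch and Mir409 (4678 CPM) in the last. The number of members at 1000 CPM or more was 2, 3 and 3, so the last group held as many abundant members as the middle one while its median was lower.

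The lincRNA gene Mirg (chr12:109729764-109749460, plus strand) overlaps the distal end. GENCODE M21 places 13 members inside it: 4 in introns (Mir453, Mir154, Mir496a, Mir541), 4 within an exon (Mir134, Mir485, Mir377, Mir410) and 5 partly in an exon (Mir382, Mir668, Mir412, Mir369, Mir3072). These 13 held 33.99% ± 1.28 of the cluster's counts and had a median of 154.2 CPM. The other 21, with no host gene in that annotation, held 66.0% ± 1.28 and had a median of 268 CPM. Reads at Mir409, which lies inside Mirg but has no row on this strand, are not in these shares. Each class inside Mirg spanned a wide range: 0 to 3729 CPM in introns, 90.7 to 967 CPM within an exon and 37.1 to 3784 CPM partly in an exon.

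**Figure D3:**
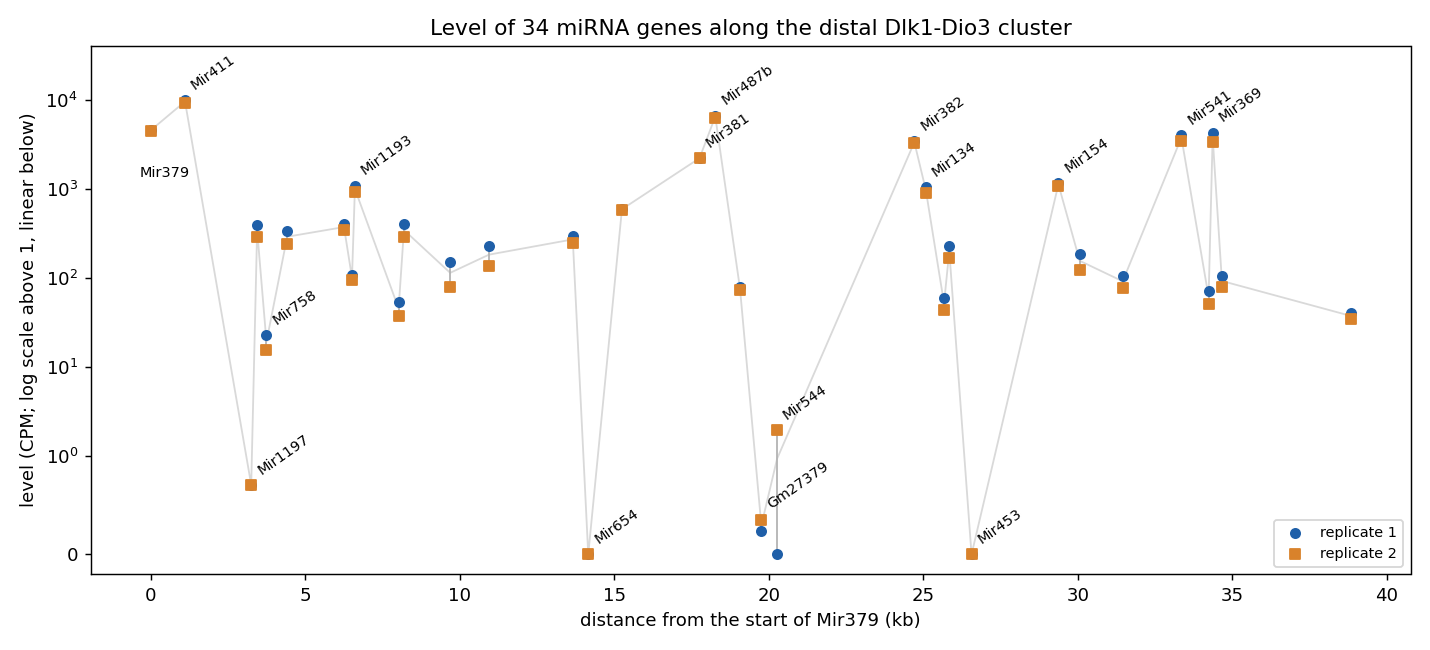
Level of the 34 members (CPM, log scale above 1 and linear below) against distance in kb from the start of Mir379; circles are replicate 1, squares replicate 2, and the grey line joins the means in order. Detected and undetected genes are neighbours in the list of members, as where Mir654 at 0 comes between Mir376c (268 CPM) and Mir300 (585 CPM). Loci without a row on this strand, such as Mir376a between Mir654 and Mir300, are not drawn.

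Members next to each other in the list of members often differed several-fold. Loci without a row on this strand, such as Mir409 between Mir541 and Mir412, are not in these pairs. Over the 24 adjacent pairs in which both members had at least 10 counts in both libraries, the ratio of the higher to the lower had a median of 5.67 and ranged from 1.30 to 85.8. It was over 10 in 9 pairs and under 2 in 4. Between the libraries the ratio moved by 1.01-fold to 1.41-fold, with a median of 1.10-fold, and its SD was 10% of the mean or more in 8 of the 24 pairs. Mir487b exceeded Mir539, which starts 714 bases after it ends, by 85.4-fold in replicate 1 and 86.3-fold in replicate 2 (85.8 ± 0.643). Mir539 itself was at 77.4 and 72.7 CPM.

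The group around Mir369 showed a steep change over a short distance. Mir412 (chr12:109743289-109743368) ends 49 bases before Mir369 begins, and it was at 70.4 and 50.9 CPM. Mir369 exceeded it by 60.4-fold and 65.2-fold (62.8 ± 3.41). Mir410, 218 bases beyond Mir369, was at 105 and 78.2 CPM, and Mir369 exceeded it 41.5 ± 1.36-fold. Mir541, 790 bases before Mir412, exceeded Mir412 by 62.4 ± 8.01-fold. Mir541 and Mir369, the nearest members on either side of Mir412, were themselves at a ratio of 1.01 ± 0.0750.

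The other pairs among the 24 were less unequal than those with Mir539 or Mir412, but some still exceeded 10-fold. Mir134 exceeded Mir668 (522 bases apart) by 19.1 ± 1.96-fold and Mir329 exceeded Mir758 (590 bases) by 15.2 ± 0.496-fold. Mir323 exceeded Mir758 (216 bases) by 17.4-fold in replicate 1 and 18.5-fold in replicate 2. Mir541 exceeded Mir377 (1831 bases) by 41.6 ± 4.57-fold and Mir1193 exceeded Mir666 (1293 bases) by 22.4 ± 2.88-fold. The pairs that follow were under 10-fold, at 20 to 2620 bases. Mir1193 exceeded Mir679, which ends 20 bases before it, by 9.92 ± 0.303-fold. Mir381 exceeded Mir300 by 3.75 ± 0.0244-fold, and Mir487b exceeded Mir381 by 2.94 ± 0.0824-fold. Mir411 exceeded Mir379 by 2.19-fold in replicate 1 and 2.04-fold in replicate 2 (2.12 ± 0.104). Larger moves were seen for Mir154 over Mir496a (6.20-fold and 8.75-fold), Mir543 over Mir495 (2.69-fold and 3.67-fold) and Mir376c over Mir667 (1.31-fold and 1.77-fold).

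By seed family, the sum was led by Mir379, Mir411 and Mir1193, whose arms are printed above. They were joined through Mir379, which shares a seed with each of the others, while Mir411 and Mir1193 share none with each other. The levels of all 3 were summed. Together they were at 15405 and 14554 CPM, or 14979 ± 602 CPM, which was 37.5% ± 1.08 of the cluster's counts. Within the family, Mir411 exceeded Mir1193 by 9.16-fold and 10.1-fold (9.63 ± 0.669), and Mir379 exceeded Mir1193 by 4.18-fold and 4.95-fold (4.56 ± 0.540). The order Mir411, Mir379, Mir1193 was the same in both libraries.

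The other families were much lower. Mir494 was at 401 and 338 CPM and Mir410 at 105 and 78.2 CPM, and together they were at 461 ± 63.1 CPM (1.15% of the cluster's counts). Mir494 exceeded Mir410 by 3.82-fold and 4.32-fold and the genes start 6.26 and 34.66 kb from the start of Mir379. Mir496a was at 185 and 123 CPM, at least 263-fold and 233-fold higher than the limit of 3 counts per library for Mir453, which shares its seed and had 0 counts. Mir758 was at 22.5 and 15.5 CPM and Mir1197 at 0.704 CPM in both, for a sum of 19.7 ± 4.97 CPM (0.0491%). The 4 families held 9 members and 39.1% ± 0.912 of the cluster's counts. The other 24 members with a mature arm shared no seed with another member among the listed arms. RefSeq listed 1 arm only for 5 members, so seeds of unlisted arms were not compared. The 61 arms held 56 different seeds. The median level was 154.2 CPM for members in a family and 233 CPM for those outside, so sharing a seed did not go with a higher median. Mir376c, counted here among the 24, has the 5p seed of Mir376b (UGGAUAU), which lies inside the window but has no row.

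The mature arms also shared shorter runs of letters, of which GGU at bases 2 to 4 lies inside the seed. The letters GGU at bases 2 to 4, read on the mature strand, were found in the 5p arm of 12 of 31 members (38.7%) and in 25 of 727 5p arms of the whole RefSeq table (3.44%). In loci that are not members they were found in 13 of 696 (1.87%), of which 2 were among 16 arms of the other Dlk1-Dio3 genes. Those 13 include the 5p arms of Mir299a and Mir409, which lie inside the window but have no row on this strand. The members with these letters were Mir379, Mir1197, Mir323, Mir758, Mir494, Mir1193, Mir667, Mir654, Mir487b, Mir496a, Mir412 and Mir410. Of these, Mir379, Mir1193, Mir1197, Mir758, Mir494, Mir410 and Mir496a have a family seed that begins with GGU, so the share partly restates those families. The members with these letters covered the whole range of levels, from 0 to 6443 CPM. Their median was 168 CPM, beside 287 CPM for members without the letters. In 3p arms, GGUNNAC (N is any base, any position) was found in 9 of 29 members (31%) and in 7 of 702 arms of other loci (0.997%). Those 7 include the arms of Mir299a, Mir380 and Mir409, which lie inside the window but have no row on this strand. GGUNNAC was found in 0 of 16 3p arms of the other Dlk1-Dio3 genes. GGUCCAC, which is 1 form of GGUNNAC, was in 4 members: Mir379, Mir411, Mir758 and Mir412, at 4489, 9499, 19.01 and 60.6 CPM. These letters were chosen after the sequences were seen, so the shares are a description.

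Shared stretches matter for the measurement, since reads that map to several loci were not counted in any gene. Of the 31 members with a hairpin, 4 shared at least 20 bases with another annotated hairpin. Mir411 and Mir758 share 21 bases, which start inside their 3p arms and are shown because the genes differed in level by 437-fold and 591-fold in the 2 libraries:
Mir411 and Mir758: gguccacuaacccucaguauc
Of these, 12 bases lie in the 3p arm of Mir411 and 9 in that of Mir758. Mir376c shares 31 bases with Mir376b, 18 of them in its 5p arm. Mir487b shares 20 bases with Mir376b, outside the 5p arm of Mir487b, the only arm listed for that member. That stretch begins with the last bases of the 3p arm of Mir376b. Mir376c was at 295 and 242 CPM, and Mir376b had no row. The 4 members had a median of 3356 CPM over a range of 19.01 to 9499 CPM, and the other 27 had a median of 198 CPM. With values so far apart, 4 members do not show whether sharing a stretch goes with level. The number of reads each of the 4 lost in this way is not known from the gene counts.

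Base composition and length of the hairpin were weakly related to level. Hairpin GC content ranged from 29.1% to 72.3% and correlated with log2 level at Pearson's r = -0.21 and Spearman's rho = -0.30 over 31 members. For hairpin length, 63 to 121 bases, the values were -0.19 and -0.06. For the GC content of the mature arms they were -0.13 and -0.24 over 33 members. They describe members of the same libraries, and no p was computed.

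The replicates were then compared gene by gene, to show how far members moved between the libraries. Each of 364 genes with at least 20 counts summed was tested by an exact binomial test (two-sided, conditional on the summed count) under TMM scaling with Benjamini-Hochberg adjustment over all 364 at 0.05. The test covers counting error alone and compares these 2 libraries. Of the 29 members tested, 24 passed (82.8%), beside 51.9% of all tested genes. Of these, 18 were higher in replicate 1 (62.1%, beside 27.5% of all tested genes) and 6 in replicate 2 (20.7%, beside 24.5%). With scaling by total counts, 23 were higher in replicate 1 (45.1% of all genes) and 0 in replicate 2 (12.6% of all genes). With TMM scaling over the 716 genes with a count, 11 of 32 members were higher in replicate 1 (10.8% of all genes) and 8 in replicate 2 (14.7% of all genes).

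The median log2 ratio of replicate 2 to replicate 1 was -0.16 over the 29 members and -0.02 over all 364 genes. By total counts these were -0.29 and -0.15, a shift of 0.13 for every gene. Members at 1000 CPM or more had a median of 0.04, beside 0.05 for all 94 such genes. From 100 to 1000 CPM it was -0.32 for 12 members and -0.07 for all 96 genes, and below 100 CPM it was -0.30 for 9 members and -0.12 for all 174. The 21 members below 1000 CPM ranged from -0.78 to 0.10, and the 8 at or above it from -0.23 to 0.13. Across the 29 members the ratio and the log2 level correlated at 0.59 (Pearson) and 0.59 (Spearman), as a description. The other Dlk1-Dio3 genes had a median of -0.10, with 8 of 15 past the test.

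A difference of at least 1.5-fold that passed was found for 2 of 29 members (6.9%), beside 11% of all tested genes. Mir495 (chr12:109718754-109718816) was at 148 CPM (629 counts) in replicate 1 and 78.3 CPM (445 counts) in replicate 2, a log2 ratio of -0.78 ± 0.09 (SE, exact binomial adjusted p = 5.49e-18). Mir667 (chr12:109720006-109720097) was at 225 CPM (960 counts) and 136 CPM (775 counts), a ratio of -0.59 ± 0.07 (exact binomial adjusted p = 7.64e-17). The genes are adjacent in the cluster, 1189 bases apart, and both were lower in replicate 2. Their ratio to each other, 1.53 and 1.74, moved less than either level.

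Among abundant members, Mir369 was lower in replicate 2 by TMM scaling and by total counts (log2 ratios -0.23 and -0.36, exact binomial adjusted p = 5.83e-51 with TMM). The 6 members higher in replicate 2 with TMM scaling were Mir379, Mir411, Mir300, Mir381, Mir487b and Mir382, at ratios of 0.03 to 0.13, and by total counts all 6 had ratios below 0. For Mir411 the TMM ratio was 0.03 (exact binomial adjusted p = 0.0107), and with unstranded counts it did not pass (exact binomial adjusted p = 0.186). The 5 members that did not pass were Mir758, Mir679, Mir539, Mir154 and Mir3072.

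**Figure D4:**
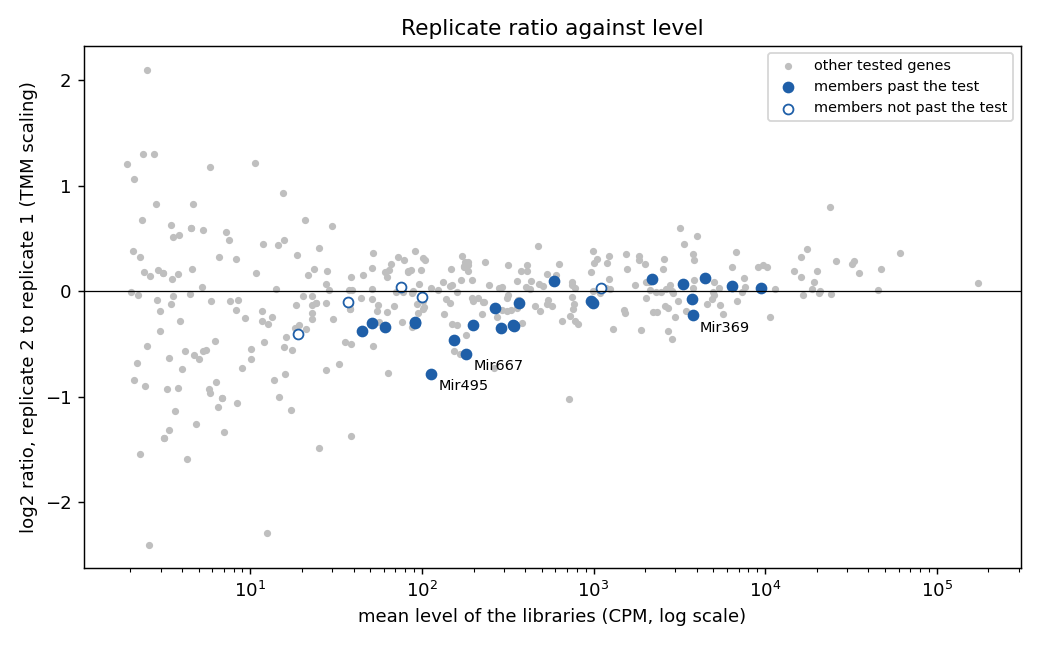
Log2 ratio of replicate 2 to replicate 1 (TMM scaling) against mean CPM (log axis) for 364 tested genes; grey points are other genes, filled blue points the 24 members past the test and open points the 5 that did not pass. Members below 1000 CPM lie mostly under 0, down to -0.78 for Mir495.

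The tissue was checked against marker miRNAs. All 9 listed epithelial markers were detected, at a sum of 90735 and 107593 CPM. They were Mir192, Mir194-1, Mir194-2, Mir215, Mir200a, Mir200b, Mir200c, Mir141 and Mir429. The smooth muscle pair Mir143 and Mir145a summed to 179872 and 172975 CPM. The endothelial marker Mir126a was at 30785.5 and 33590 CPM, and the endocrine marker Mir375 at 17643 and 15726 CPM. Because the cluster is known from brain, the neuronal list was read beside its level: of 6 genes with a row, Mir124a-2, Mir124a-3 and Mir9-2 were at 0 in both libraries, Mir124a-1 had 0 and 0.352 CPM, Mir9-3 had 6.57 and 4.05 CPM, and Mir137 (1421 and 1663 CPM) made up nearly all of the sum of 1428 and 1668 CPM. The Mir124a genes and the Mir9 genes are copies that give the same mature RNA, and reads that fit several copies were counted in no gene, so their low counts do not measure neuronal RNA. Skeletal and heart muscle markers summed to 99.2 and 121 CPM, with 2 of 8 at 0. Those 2 are the Mir133a copies, to which the same limit applies. Mir1a-1 was at 0.704 and 0 CPM, and Mir1a-2 had no row. With these limits the sum does not measure muscle RNA. Pancreas markers summed to 1.64 and 4.75 CPM, and blood markers to 1401 and 1209 CPM. The liver miRNA Mir122 was at 994 CPM in replicate 1 and 448 CPM in replicate 2, so it moved between the libraries in the same direction as most members below 1000 CPM. The part of other cells in the members' levels and replicate ratios was not tested.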

How the data were processed

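Small RNA of E16.5 intestine was sequenced in 2 libraries. The authors deposited raw counts per miRNA gene, not normalized, on mm10 with GENCODE M4, per the file headers and readmes. Aligner and counter: not given in the sources used here. Of 3 count columns, the one on the strand of the gene was used, told apart by its values. Reads naming no gene were left out: unmapped (19.5% and 17.2%), several loci (26.2% and 25.7%) and outside genes (3.69% and 2.88%).

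Identifiers were matched to GENCODE M21, and sequences came from RefSeq. No contrast exists, so edgeR's quasi-likelihood test was not used. TMM factors came from edgeR 4.0.16 and alternative size factors from DESeq2 1.42.0 (R 4.3.3); other work used Python 3.11.15, pandas 2.3.3, numpy 2.4.6, scipy 1.17.1 and matplotlib 3.10.9. A prior of 0.5 counts entered each log2 ratio, and 1 CPM was added before taking logs for correlations. The binomial test was tested on simulated data. Members in order were called apart where libraries did not overlap and means differed by more than the summed SDs.

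Members and lists were chosen with earlier results of these data known. Named genes were the 10 highest and 5 lowest members, those past the test at a log2 ratio of 0.5 or more in size, members of seed families and those sharing 20 bases; others named beside a result were chosen after their values were seen. Alternatives covered strand, totals, pseudocounts, count minimums, seed length, scaling and each library alone. The labels name biological replicates; intervals and p-values cover counting error only, since PCR copies cannot be told apart.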

Additional observations from a re-analysis of the deposited data

Results flagged for a closer look

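Inside the window, 4 rows on the minus strand had almost no counts on their own strand and many on the opposite one, the strand of the cluster. These counts lie outside the levels above and exceeded the limit of 3 counts in both libraries. At the row Gm24321, where GENCODE M21 places Mir409 on the plus strand, they numbered 20822 and 25397 (4678 ± 293 CPM). At Gm25252, the place of Mir376a, they numbered 12060 and 18184 (3015 ± 263 CPM). At Mir299b, the place of Mir299a, they numbered 7165 and 9135 (1645 ± 51.7 CPM), beside 14 and 15 on the strand of the row. At Gm25750, the place of Mir380, they numbered 2881 and 3577 (653 ± 32.7 CPM). The 34 members had 0 and 1 counts on the opposite strand. Together the 4 rows would add 0.999% ± 0.0115 to the cluster's share of all counts.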

How the results depend on the processing

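The cluster's share of 3.99% became 4.83% when the total excluded Mir143, the top gene, 2.01% with all reads as the total, and 4.99% with the opposite-strand counts of the minus-strand rows added. With either library alone it was 3.80% to 4.19%. The correlation of level with position, -0.03 over all members, was -0.0483 with a pseudocount of 10 CPM, -0.0955 over members of at least 1 CPM, 0.0162 without members sharing 20 bases, which changes its sign, and -0.0360 with the minus-strand rows added as loci, an alternative chosen after seeing the data. With either library alone it was -0.0339 to -0.0317. The families' share of 39.1% became 48.7% with seeds of bases 2 to 7 (6 families, 13 members) and was 38.5% to 39.8% with either library alone. At 22 shared bases 1 member remained, Mir376c. In the replicate comparison, members past the test fell from 24 to 2 with a 1.5-fold minimum. Members higher in replicate 1 numbered 11 with TMM over all genes with a count and 2 with the 1.5-fold minimum, and members higher in replicate 2 numbered 0 by total counts and 0 with that minimum. Of 71 alternatives, 53 stayed within 1 SD of the libraries for a value or within 1.5 times for a count, and 18 moved further. The causes of these moves were not tested beyond how each alternative is built. The rule for members apart in order needs both libraries and was not run on 1, and the depth leaves members under 3 counts unresolved.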

Other observations

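Some seeds of the cluster also occur at miRNA loci outside its window. Of the members, 10 shared a seed with such a locus in RefSeq. Mir329 (3p seed ACACACC) was at 287 ± 66.1 CPM, and Mir362 on chromosome X, with that seed, was at 112 ± 5.62 CPM. The 3p arm of Mir1193 has the seed of the 5p arm of Mir370 (AGGUCAC), a miRNA of the proximal part of the Dlk1-Dio3 region that was at 330 ± 49.8 CPM. The 5p arm of Mir377 (90.7 ± 19.02 CPM) has the seed of the 5p arm of Mir672 (GAGGUUG), which was at 44.4 ± 4.26 CPM. For Mir412 (60.6 ± 13.8 CPM) the other locus was the higher one, with Mir1983 on chromosome 13 at 1180 ± 58.5 CPM. The loci that share a seed with Mir679, Mir668 and Mir134 (Mir7221, Mir467h and Mir3620) had 0 counts in both libraries. Which arm was read at these genes is not known from the counts.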
